A study of Homo sapiens with 4 samples.

Results

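The 6 rows described here, of a ribosome profiling count table, lie at the places of the nuclear genes NDUFS7, NDUFS6 and NDUFB6 (respiratory complex I), SDHA (complex II), UQCR11 (complex III) and ATP5F1D (ATP synthase, complex V). They were chosen by their place on GRCh38, 6 of 78724 rows. They lie on the chromosome arms 19p, 5p and 9p, where rows of the table were read as genes. Ribosome-protected fragments (footprints) were sequenced from A375, an established line of human melanoma cells. These were kept for 48 h in arginine-free medium, made from RPMI lacking amino acids by adding back all but L-arginine, with glucose and pyruvate, or in control medium (2 libraries each). The series concerns cancers deficient in ASS1, an enzyme that cells need to make arginine from citrulline. The labels do not say whether the libraries of a group came from separate cultures. The p-values therefore reflect the spread between the libraries at hand, and that spread may be technical.

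The respiratory chain passes electrons from NADH (complex I) and succinate (complex II) through ubiquinone, complex III and cytochrome c to complex IV, and the proton gradient that builds up drives ATP synthase. Most subunits are encoded in the nucleus, made on cytosolic ribosomes and imported into mitochondria, while a few core subunits are made inside the organelle from mitochondrial DNA. Melanoma cells can draw ATP from both glycolysis and this chain. Complex II has nuclear-encoded subunits alone, and the others are built from both genomes.

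Total counts were 234766 and 192006 in arginine-free replicates 1 and 2, and 105004 and 217989 in control replicates 1 and 2. The edgeR quasi-likelihood test was run on the 2526 rows that passed a filter on low counts, and adjusted p-values (Benjamini-Hochberg) were called at a threshold of 0.05. Levels are in CPM, counts scaled to a common library total over the tested rows after TMM scaling. The submitters' processing notes name GRCh37 for the reads, while the table's coordinates lie on GRCh38. Nuclear rows were read as genes only within 5 nuclear stretches, runs of neighbouring rows, most of them with reads, on 5p, 6p, 9p and 19p. The 13 mitochondrial subunit rows lie in no stretch and were read as genes too, which was not tested. Around NDUFS7, UQCR11 and ATP5F1D, all 20 nearest protein-coding rows held reads. Around NDUFS6 7 of 20 such rows were at 0, around NDUFB6 5 of 20 and around SDHA 3 of 13. Of all protein-coding rows inside the stretches 106 of 376 (28.2%) were at 0, against 72.7% of the 17918 outside them. Since the stretches were chosen as runs of rows mostly with reads, this difference follows from the choice and cannot test whether rows can be read as genes. The rows counted around ATP5F1D and SDHA include some outside the stretches.

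The rows differed in how much of their gene they could count. The counting command names no option for reads that overlap several genes, and by default featureCounts gives reads in bases shared by several rows to none of them. ATP5F1D (ENSG00000099624, chromosome 19, 1241746 to 1244825) has 1000 exonic bases in 4 exons, and NDUFS6 (ENSG00000145494, chromosome 5, 1801407 to 1816048) has 756 in 4 exons, with none shared. NDUFB6 (ENSG00000165264, chromosome 9, 32553001 to 32573184) shares 12 of 1386 exonic bases with SMIM27. SDHA (ENSG00000073578, chromosome 5, 218303 to 257082) shares 1887 of its 2710 exonic bases (69.6%) with 1 other row on the same strand, ENSG00000286001, which held 1 read in all. Of the 15 SDHA exons, 13 lie wholly in that row, so SDHA reads could be counted only over the other 823 bases. Most of those, 627 bases, belong to the last exon, and the other 196 are exon 9. How many of these bases are coding was not examined. NDUFS7 (ENSG00000115286, chromosome 19, 1383527 to 1395589) shares 1817 of 3194 exonic bases (56.9%) with 2 rows on the other strand, since the counts do not use strand. UQCR11 (ENSG00000127540, chromosome 19, 1597169 to 1605473) shares 235 of 1911 exonic bases with a row on its own strand, ENSG00000267059, and these lie in 2 of its 3 exons. The median exon of SDHA has 144 bases and that of NDUFS6 170.5. Whether a shift between the builds moved reads across exon edges was not tested for any of the 6 rows.

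**Figure D1:**
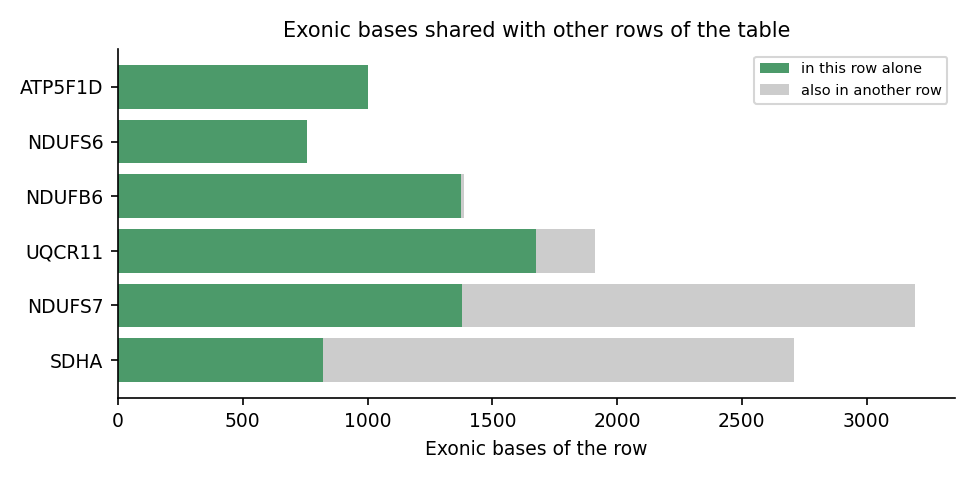
Exonic bases of the 6 rows that lie in the row alone (green) or also in another row of the table (grey), on a linear axis from 0. The SDHA bar has 823 bases of its own out of 2710, while the bars of ATP5F1D and NDUFS6 have no grey part.

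On 5p, both SDHA and NDUFS6 start close to a gene that runs the other way, CCDC127 and MRPL36. The bases before 4 of the subunits are printed because they show how little separates these paired rows, and because several share a motif. In the NDUFS6 line, capitals mark the 40 bases between the rows of MRPL36 and NDUFS6 (GRCh38.p14, chr5:1801337-1801406, plus strand). In the other lines capitals mark the core of the site of NRF1, a transcription factor known for binding promoters of respiratory chain genes. They show SDHA at chr5:218144-218319 (plus strand), NDUFS7 at chr19:1383803-1383871 (plus strand) and UQCR11 at chr19:1605463-1605520 (minus strand), all from RefSeq and written 5′ to 3′. Gene starts in this part are those of RefSeq. The NDUFS7 row of the table begins earlier, at 1383527, so the printed NDUFS7 bases lie within that row. The SDHA and UQCR11 lines reach over the edge of their rows.
NDUFS6: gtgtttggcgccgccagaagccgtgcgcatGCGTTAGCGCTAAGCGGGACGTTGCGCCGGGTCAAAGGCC
SDHA: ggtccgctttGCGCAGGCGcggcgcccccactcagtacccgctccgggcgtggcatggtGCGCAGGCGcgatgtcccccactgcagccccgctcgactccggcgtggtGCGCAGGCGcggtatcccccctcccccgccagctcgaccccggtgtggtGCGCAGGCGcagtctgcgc
NDUFS7: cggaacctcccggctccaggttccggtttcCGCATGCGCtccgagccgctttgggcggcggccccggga
UQCR11: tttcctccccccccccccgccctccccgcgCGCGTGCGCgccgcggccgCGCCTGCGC

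The letters searched were GCGCANGCG, and CGCNTGCGC on the other strand, in the 250 bases before each RefSeq gene start, and they were chosen after these sequences had been read. They were found before NDUFS6, NDUFS7, SDHA and UQCR11, 4 of the 5 subunits in the promoter table, and not before NDUFB6. They were in 6.56% of all 35116 promoters, in 8.49% of those of protein-coding genes and in 27.3% of the 77 listed nuclear subunits found in the table. SDHA held 4 copies, and 42 of the 35116 promoters (0.12%) held at least as many. Of the 4, 3 lie wholly between the rows of CCDC127 and SDHA. Before NDUFS6 the match starts at position -46 from the gene start and reaches over the edge of the MRPL36 row. The ETS core CCGGAAGT, or ACTTCCGG, was before UQCR11 alone of the 5, and in 3.42% of all promoters. The letters TATAAA and CCAAT, each on both strands, were before none of the 5 and in 10.7% and 32.0% of all promoters. A match describes the letters and not a bound site.

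Footprints fell on 2 of the 5 subunits that could be tested, and no subunit rose. ATP5F1D fell 3.99-fold and SDHA 2.18-fold in arginine-free medium, while the 3 complex I subunits did not pass the test. The SDHA row could be counted over only 823 of its 2710 exonic bases, most of them in its last exon. Its call did not hold with DESeq2 (DESeq2 adjusted p = 0.253). Over all tested rows 16.9% were lower and 16% were higher (33% in either direction). Over the 175 tested protein-coding rows of the nuclear stretches 22.3% were lower and 13.7% were higher (36% in either direction). The median log2 fold change was -0.49 over the 5 subunits, -0.12 over those 175 rows and -0.029 over all tested rows. Every tested subunit held at least 23 reads in each library, so none passed the filter through 1 group alone. Together the 6 rows took 168 and 191 of every 100000 reads in arginine-free medium, against 346 and 300.5 in control medium. No RNA libraries were used here, so less mRNA and fewer ribosomes on each mRNA cannot be told apart. Melanocytic markers were lower as well: the 3 of 8 listed markers with reads summed to 1 and 2 reads in arginine-free medium, against 23 and 36 in control medium. TYRP1, a melanosome enzyme, fell to 1 and 0 reads in arginine-free medium, against 16 and 25 in control medium (edgeR adjusted p = 0.000104). MLANA held 0 and 2 reads in arginine-free medium, against 6 and 10 in control medium, and S100B held 2 reads in all. MITF, TYR, PMEL and SOX10, which lie outside the stretches, were listed at 0, and DCT was not matched to a row. The part of the markers' shift in the subunits' values was not tested.

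Complex I takes electrons from NADH, and its 3 tested members showed smaller differences than SDHA and ATP5F1D. Complexes II and V have 1 tested member each, so this does not rank the complexes. NDUFS7, a core subunit that carries the last iron-sulfur cluster before ubiquinone, held 69 and 64 reads in arginine-free medium, against 37 and 73 in control medium. The levels of 299 and 402 CPM in arginine-free medium lay on either side of the 349 and 374 CPM in control medium. Its log2 fold change was -0.064 (SE 0.26, 95% interval -0.62 to 0.49, edgeR adjusted p = 0.871). The interval reaches a level 1.54-fold lower in arginine-free medium. The sign turned when arginine-free replicate 1 (0.19) or control replicate 2 (0.019) was left out. NDUFS7 and NDUFS6 have the NRF1 letters before their RefSeq starts, as do SDHA and UQCR11. A link between these letters and the footprints was not tested. For NDUFS7 these letters lie inside the row that was counted.

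NDUFS6, an accessory subunit that binds zinc, held 151 and 120 reads in arginine-free medium, against 100 and 200 in control medium. Its level was 654 and 754 CPM in arginine-free medium, against 942 and 1026 CPM in control medium. Both arginine-free libraries were below both controls, as in 34.2% of all tested rows and 38.9% of the protein-coding rows of the stretches (not overlapping in either direction, 67.3% and 69.7%). The log2 fold change of -0.49 (SE 0.21, 95% interval -0.94 to -0.042) did not pass (edgeR unadjusted p = 0.0342, adjusted p = 0.086). With at least 50 counts asked of every library of a group, which left 580 rows, it passed at -0.73 (edgeR adjusted p = 0.0096). In that setting NDUFS7 (-0.31), NDUFB6 (-0.45) and ATP5F1D (-2.23) were also lower than in the main setting.

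NDUFB6, an accessory subunit of the membrane arm, held 83 and 98 reads in arginine-free medium, against 50 and 120 in control medium. This gave 359 and 616 CPM in arginine-free medium, against 471 and 615 CPM in control medium. The groups overlapped, and arginine-free replicate 1 was the lowest library. The log2 fold change was -0.20 (SE 0.27, 95% interval -0.77 to 0.38, edgeR adjusted p = 0.611). Leaving out arginine-free replicate 1 gave 0.19, leaving out the other arginine-free library gave -0.57, and leaving out control replicate 2 gave 0.056. The sign thus turned without arginine-free replicate 1 and also without control replicate 2.

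SDHA encodes the flavoprotein of succinate dehydrogenase, which oxidises succinate and so belongs to both the citric acid cycle and the chain. Its row held 30 and 23 reads in arginine-free medium, against 31 and 59 in control medium. After scaling, these were 129.9 and 144 CPM in arginine-free medium, against 292 and 303 CPM in control medium. The groups did not overlap and replicates lay close together, although the counts are small. The log2 fold change was -1.12 (SE 0.30, 95% interval -1.76 to -0.49, edgeR adjusted p = 0.0105). The call ended without control replicate 2 (edgeR adjusted p = 0.0645) and with DESeq2 (adjusted p = 0.253), at log2 fold changes of -1.07 and -1.04. SDHA has near-identical copies elsewhere in the genome, so its reads are uncertain for that reason too. SDHAP2 and SDHAP3 held none, and the row at SDHAP1 held 4 and 6 reads in arginine-free medium and 1 and 5 in control medium.

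UQCR11, a small accessory subunit of complex III, held 6 and 5 reads in arginine-free medium, against 0 and 4 in control medium. It did not pass the filter and was not tested. The 0 of control replicate 1 is compatible with up to 3 counts, or 28.6 CPM of all rows there. Summed over libraries and divided by their totals, the 11 reads in arginine-free medium and the 4 in control medium give a ratio of 2.08, with an exact 95% counting interval from 0.617 to 8.96. That interval includes both a lower and a higher level. Such intervals cover counting error only, since amplified fragments are not independent molecules.

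ATP5F1D encodes the delta subunit of ATP synthase, part of its rotating central stalk. Its row held 56 and 57 reads in arginine-free medium, against 145 and 199 in control medium. Scaled, that is 243 and 358 CPM in arginine-free medium, against 1367 and 1021 CPM in control medium. Both arginine-free libraries lay far below both control libraries. The mean was 300.3 ± 81.7 CPM in arginine-free medium and 1194 ± 245 CPM in control medium (SD, n = 2 each), and the log2 fold change was -1.997 (SE 0.25, 95% interval -2.54 to -1.45, edgeR adjusted p = 4.99e-05). Under the 13 alternatives it lay between -2.23 and -1.67 and passed in each. The interval of the fold runs from 2.74 to 5.82 lower. Among the 175 protein-coding rows of the stretches, 12.6% had a lower log2 fold change than ATP5F1D.

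**Figure D2:**
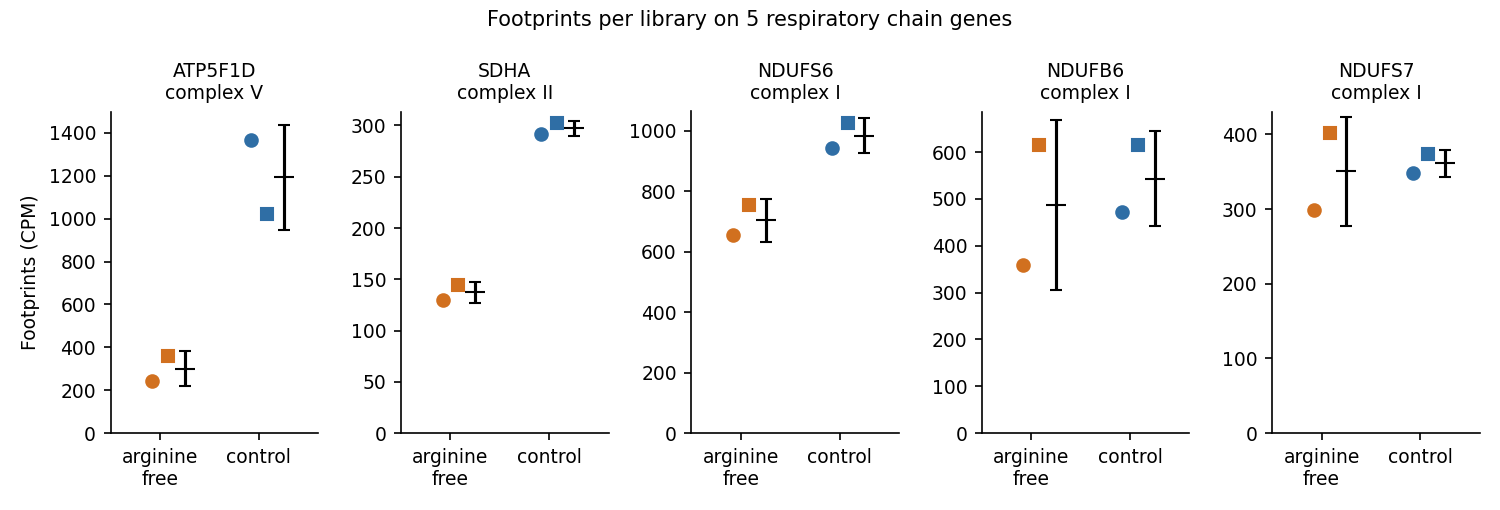
Footprints in CPM (linear axes from 0, one scale per gene) on the 5 tested subunits. Circles are replicate 1 and squares replicate 2, with the mean and SD beside them (n = 2); UQCR11 was not tested and is not drawn. For ATP5F1D, SDHA and NDUFS6 both arginine-free libraries lie below both controls, and for NDUFB6 and NDUFS7 the groups overlap.

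Because reads of different genes in 1 library share its depth and scaling, ratios of reads between subunits need no scaling factor. In arginine-free medium there were 0.812 and 0.891 ATP5F1D reads per NDUFS7 read, against 3.92 and 2.73 in control medium. Per NDUFS6 read there were 0.371 and 0.475 ATP5F1D reads in arginine-free medium, against 1.45 and 0.995 in control medium. The ratio of ATP5F1D to each of the other 4 tested subunits was lower in both arginine-free libraries than in both controls. The difference in the log2 ratio, with 0.5 added to each count, was -1.93 to NDUFS7 (pooled SD 0.27), -1.80 to NDUFB6 (0.41), -1.51 to NDUFS6 (0.32) and -0.89 to SDHA (0.31). SDHA in turn was lower relative to NDUFS7 (difference in the log2 ratio -1.04, pooled SD 0.14), with 0.435 and 0.359 SDHA reads per NDUFS7 read in arginine-free medium, against 0.838 and 0.808 in control medium. Between the complex I subunits, the ratio of NDUFS6 to NDUFS7 differed by -0.42 (pooled SD 0.11). The ratios of NDUFS6 to NDUFB6 and of NDUFB6 to NDUFS7 overlapped between media, with differences of -0.29 and -0.13. Of the 10 pairs, 8 did not overlap between media, against 67.8% of all pairs of tested rows and 73.4% of pairs of tested protein-coding rows of the stretches. With 10 pairs that share 5 subunits, this count is not a result about these subunits. The exact two-sided permutation test of 2 libraries against 2 cannot give a p-value under 0.333, which those 8 pairs reached (0.417 adjusted over the 10 pairs), so no pair passed.

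**Figure D3:**
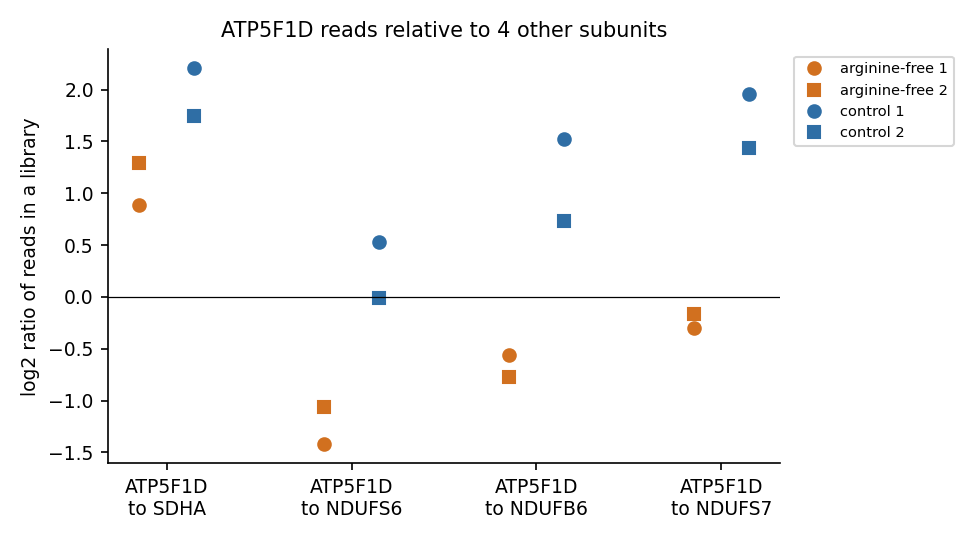
The log2 ratio of ATP5F1D reads to the reads of 4 other subunits in each library (0.5 added to every count). In each of the 4 columns both arginine-free libraries (orange) lie below both control libraries (blue).

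Levels were compared between genes per kilobase of exonic bases that belong to the row alone. In arginine-free medium NDUFS6 was at 931 ± 93.3 CPM per kilobase, NDUFB6 at 355 ± 132 and ATP5F1D at 300.3 ± 81.7 (SD, n = 2). NDUFS7 stood at 254 ± 53.0 CPM per kilobase there and SDHA at 167 ± 12.5. NDUFB6, ATP5F1D and NDUFS7 did not differ beyond their spread in that medium. In control medium NDUFS6 stood at 1302 ± 77.9 and ATP5F1D at 1194 ± 245 CPM per kilobase (SD, n = 2), a difference within the spread between libraries. They were followed by NDUFB6 at 395 ± 74.2, SDHA at 361 ± 8.96 and NDUFS7 at 263 ± 13.2 CPM per kilobase, with NDUFB6 and SDHA within their spread of each other. These lengths hold untranslated exon parts, where footprints are scarce, so the order between genes also depends on how much of each row is coding.

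By complex, the nuclear rows can be set beside the mitochondrial genes of the same machines. For ATP synthase, ATP6 held 463 and 169.6 CPM in arginine-free medium, against 669 and 590 CPM in control medium. ATP6 fell by 0.94 on the log2 scale (SE 0.33, edgeR adjusted p = 0.0434), with arginine-free replicate 2 the lowest library. ATP8 stood at -1.43 (SE 0.53, edgeR adjusted p = 0.0524). For complex I, the 7 mitochondrial genes had log2 fold changes from -0.88 (ND2, which passed) to -0.022 (ND1), and the 3 nuclear genes from -0.49 to -0.064. Arginine-free replicate 2 was the lowest library for every mitochondrial gene of the chain, with ND2 at 301 CPM there and 650 CPM in arginine-free replicate 1. Arginine-free replicate 1 lay above a control library for ND1, ND3 and ND4, and below both controls for ND2, ND4L, ND5 and ND6. CYTB, of complex III, stood at -0.60 (SE 0.23, edgeR adjusted p = 0.0556). The difference between nuclear and mitochondrial genes of a complex was not tested.

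**Figure D4:**
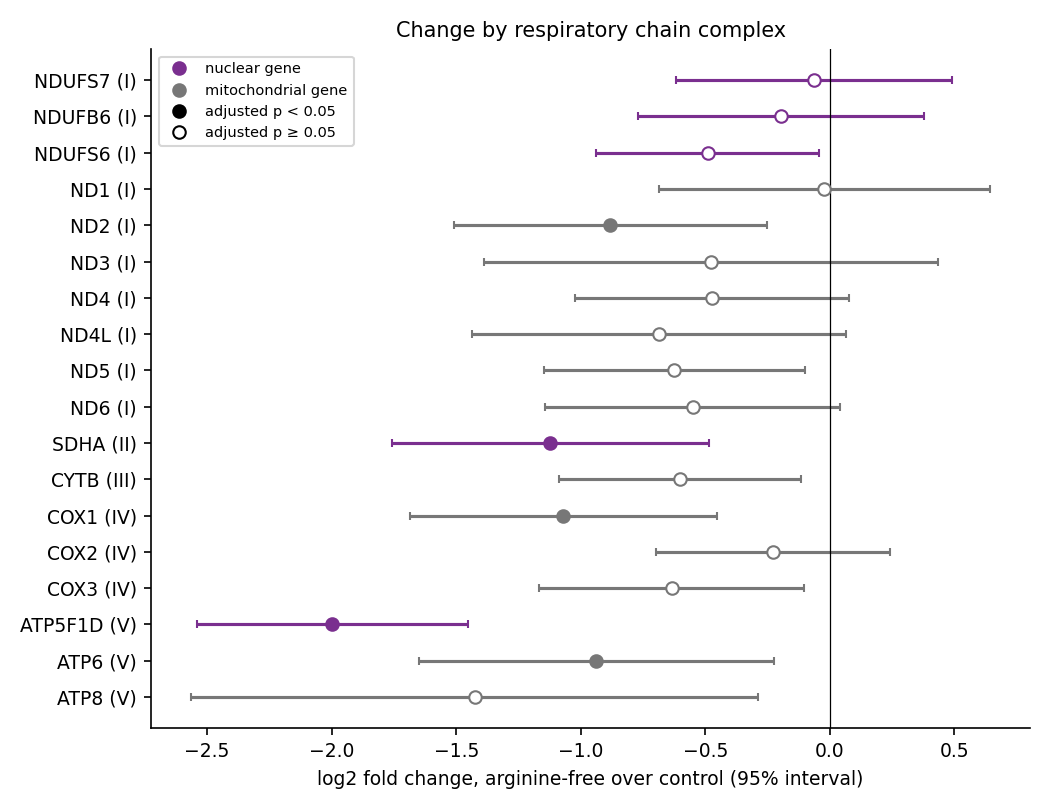
The log2 fold change of 5 nuclear (purple) and 13 mitochondrial (grey) genes of the chain, arginine-free over control, with 95% intervals from the edgeR fit and the complex in brackets. Filled points passed an adjusted p of 0.05; ATP5F1D, at -1.997, lies lowest of the 18 and NDUFS7, NDUFB6 and ND1 lie nearest to 0.

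The wider pathway could be followed only in small part. Of 79 nuclear subunits of the 5 complexes, 70 had a matched row, 51 of these were listed at 0 and 11 passed the filter. Of the 11, the 5 described above lie in the nuclear stretches. The other 6 lie outside, with 1 higher, 2 lower and 3 that did not pass. Outside the stretches a row may hold reads of some other gene. No complex IV subunit of nuclear origin lies in a stretch. Of 38 assembly factors none lies there either, and 35 had a row, of which 26 were listed at 0.

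The nearest tested protein-coding rows on either side of the subunits moved in both directions, and some of them lie far away. On the 3′ side of ATP5F1D, 3727 bases away, the row of MIDN, a protein that guides others to the proteasome, rose to 242 and 189 reads in arginine-free medium, against 79 and 112 in control medium (log2 fold change 0.77, SE 0.22, edgeR adjusted p = 0.0154). On the other side, 67.5 kb away, the row at SBNO2 fell (log2 fold change -1.58, SE 0.30), but it lies outside the stretch, so its reads may be those of another gene. Of 7 other tested protein-coding rows of the stretch with midpoints within 500 kb of ATP5F1D, NDUFS7 among them, 1 rose and 1 fell, and 1 had a lower log2 fold change than ATP5F1D. That row, GAMT, an enzyme of creatine synthesis, lies 1436 bases from NDUFS7 and held 4 and 9 reads in arginine-free medium, against 16 and 37 in control medium. On the far side of NDUFS7, 104 kb away, FAM174C stood at 0.59 (SE 0.40) and did not pass. For UQCR11, the ribosomal protein gene RPS15, 157 kb away, stood at 0.42 (SE 0.25) and the transcription factor gene TCF3, 3818 bases away, at -0.79 (SE 0.36), and neither passed. For NDUFB6, TOPORS, a ubiquitin and SUMO ligase 414 bases away, did not pass (log2 fold change 0.64, SE 0.36), and APTX, a DNA end-processing enzyme 398 kb away, rose (1.46, SE 0.37).

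At both 5p pairs of rows printed above, the neighbouring row rose. Between the rows of CCDC127 and SDHA lie 149 bases, and CCDC127 held 39 and 21 reads in arginine-free medium, against 6 and 16 in control medium (log2 fold change 1.07, SE 0.38, edgeR adjusted p = 0.0426). SDHA is the first gene of its stretch, so the CCDC127 row lies outside and may hold reads of another gene. MRPL36, a protein of the mitochondrial ribosome, lies 40 bases from NDUFS6 and held 86 and 69 reads in arginine-free medium, against 20 and 31 in control medium (log2 fold change 1.22, SE 0.28, edgeR adjusted p = 0.00478). On the far side of SDHA, 186 kb away, EXOC3 stood at -0.82 (SE 0.30, edgeR adjusted p = 0.0502). On the far side of NDUFS6, 61.4 kb away, IRX4 rose with 12 and 11 reads in arginine-free medium, against 1 and 0 in control medium. Whether reads of one row of a pair were counted in the other was not tested.

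Rows with the most similar profiles were found among the 175 tested protein-coding rows of the stretches, by the Euclidean distance between log2(CPM + 1) values over the 4 libraries, each centred on its mean. For ATP5F1D these were MFSD12, a cysteine carrier of melanosomes (distance 0.23, 175 and 159 reads in arginine-free medium, against 370 and 511 in control medium), and HMGCS1, an enzyme of cholesterol synthesis (0.25). For SDHA they were the histone gene H4C6 (0.12), one of several copies of like sequence, and FOCAD (0.20). For NDUFS6 they were JAK2, a kinase of cytokine receptors (0.056), and ACO1, the cytosolic aconitase that also binds iron-responsive mRNAs (0.081). For NDUFS7 they were the transcription factor NFIC and the chaperonin subunit CCT5 (0.21 each), and for NDUFB6 the ribosome-linked chaperone DNAJC21 (0.22) and NDUFS7 (0.34). With 4 libraries, such a likeness describes 4 values per row and no more.

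**Figure D5:**
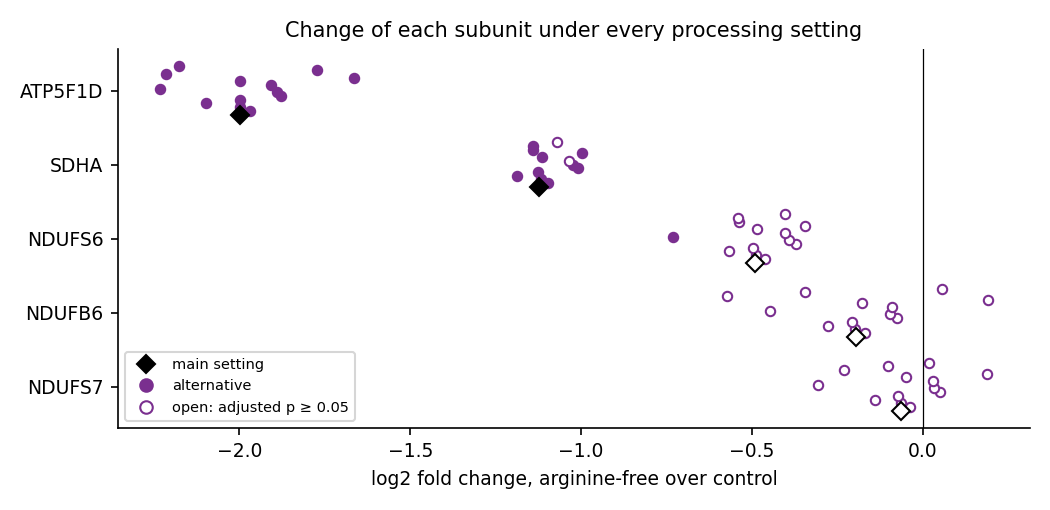
The log2 fold change of the 5 tested subunits, arginine-free over control, in the main setting (diamonds) and under each alternative that could test the row (circles; 13, and 12 for SDHA). Open symbols did not pass an adjusted p of 0.05; ATP5F1D stays between -2.23 and -1.67, while NDUFS7 and NDUFB6 fall on both sides of 0.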

How the data were processed

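The authors deposited raw counts per gene row, made with featureCounts 2.0.1 from exons of GENCODE 47 (basic set), ignoring strand and with the option for paired reads, per the file headers. The tools cutadapt, Bowtie2 2.5.2 and TopHat2 and the builds GRCh37 and hg19 are listed in the submitters' processing notes, with no order. Per the labels' protocols, ribosomal RNA was not depleted and reads were single. Rows were named by place against RefSeq GRCh38.p14 genes (mutual best match, overlap over union of at least 0.5 with a shared end, otherwise 0.75), which named 38579 rows. The whole table was fitted with edgeR 4.0.16 (R 4.3.3; TMM, filterByExpr, quasi-likelihood test). The SE was computed by dividing the size of the log2 fold change by the root of F, and intervals use the fit's degrees of freedom. DESeq2 1.42.0, other scalings and filters, a replicate block and left-out libraries were alternatives. On simulated counts for the 2526 tested rows, 83% of 4-fold and 33% of 2-fold changes were recovered, with 4 calls among unchanged rows. The simulation changed 200 rows and gave all rows the same dispersion (0.034), while 833 rows were called in the data. These shares may therefore not hold for the data. Tables used Python 3.11.15 and pandas 2.3.3.

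The members, gene lists and nuclear stretches were chosen with earlier results of these data known, and ATP5F1D and SDHA each mark the end of a stretch. Named genes are the 6 members, their nearest tested neighbours, the 2 likest rows of each tested member and mitochondrial subunits of the members' complexes. Same-numbered libraries did not deviate together (r = -0.053 over 2526 rows), and the main fit did not pair them. With 2 libraries per group this cannot show whether the numbers pair cultures.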

Additional observations from a re-analysis of the deposited data

How the results depend on the processing

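ATP5F1D passed under all 13 alternatives and SDHA under 10 of 12. SDHA did not pass with DESeq2 (-1.04) or without control replicate 2 (-1.07). NDUFS6 newly passed with at least 50 counts per library of a group (-0.73), a setting in which NDUFS7, NDUFB6 and ATP5F1D were lower as well. NDUFS7 changed sign with the rows of the nuclear stretches alone (0.052, an alternative added after seeing the data), with no filter (0.034) and with DESeq2 (0.031), and passed nowhere. The cause was not tested. Leaving out 1 library in turn gave log2 fold changes from -2.21 to -1.67 for ATP5F1D, -1.14 to -0.996 for SDHA, -0.54 to -0.34 for NDUFS6, -0.57 to 0.19 for NDUFB6, -0.23 to 0.19 for NDUFS7 and 0.49 to 1.07 for UQCR11, which without control replicate 2 has no reads in control medium and gives no value. SDHA has no value with at least 50 counts per library of a group. With the replicate block ATP5F1D stood at -1.997 and SDHA at -1.11, both past the threshold, and no member's call changed; 354 rows were higher and 372 lower. Of all tested rows, 833 were called, against 284 with at least 50 counts per library of a group, 309 with DESeq2 and 513 to 798 with 1 library left out (513 without control replicate 2). Of the 11 listed nuclear subunits tested 5 were called, against 2 of 5 with the rows of the nuclear stretches alone. The counts were 3 of 6 with at least 50 counts and 3 of 11 with DESeq2. Over all rows 833 of 2526 were called in the main setting, 284 of 580 with at least 50 counts and 309 of 2669 with DESeq2. Of the 5 called subunits, 1 higher and 2 lower lie outside the stretches, where a row may hold reads of another gene. Of the 10 ratios between members 8 did not overlap (73.4% of all pairs in the stretches), and 9 did not with 1 library left out (84.8% to 88.0% of those pairs). The median log2 fold change of all tested rows lay between -0.089 and 0.051 over the settings. Depth limits SDHA and UQCR11 most, with 143 and 15 reads in all.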
